A study of Mus musculus with 6 samples.

Results

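The glycolysis, lactate and glycogen genes described here are 34 genes, chosen by name, that carry glucose from uptake to pyruvate, exchange pyruvate with lactate, gate the entry of pyruvate into the mitochondrion and store glucose as glycogen, with the hypoxia-inducible factor Hif1a added. All 34 are found among the 55357 genes of the deposited table, and all 34 had a mean of at least 10 normalized counts over the cultures, the minimum set for testing. Their mRNA was compared between 3 cultures of mouse cortical astrocytes transfected with a plasmid that expresses FLAG-tagged BRAF K499E from the CMV promoter (KE) and 3 nontransfected cultures labelled naive (NT). The transfected cultures were harvested 48 hours after transfection, and the labels repeat the same protocol text for the NT cultures. According to the methods, the astrocyte cultures of the study came from C57BL/6 embryos and the dishes were shaken before the cells were replated in neurobasal medium with B-27 and HB-EGF, a ligand of the EGF receptor, in both groups. The CMV promoter is not restricted to astrocytes, and the NT cultures received no plasmid, so the effects of the plasmid and of BRAF KE cannot be told apart. Neither the labels nor the methods say whether the 3 cultures of a group came from separate embryos or preparations, so p-values measure the spread between these cultures, which may be technical.

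Glycolysis splits 1 glucose into pyruvate in the cytosol, and lactate dehydrogenase converts pyruvate and lactate into each other. Astrocytes are known for active glycolysis, for exporting lactate through monocarboxylate transporters, and for holding most of the glycogen of the brain. Many enzymes of the pathway exist as isoforms encoded by separate genes, such as Hk1 and Hk2 for hexokinase, and the isoforms differ in the cells that express them.

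The cultures were checked first for the cells they held. Braf was 34933 to 40978 normalized counts in KE and 811 to 946 in NT. Of 12 astrocyte markers, 7 were higher and 2 lower in KE, and their summed level was 189479 to 194320 in KE and 137754 to 146524 in NT; Gjb6, which marks mature astrocytes, was near 0 throughout. All 15 microglia and macrophage markers were lower in KE, with summed levels of 5553, 7683 and 5575 in the 3 KE cultures against 55159, 54020 and 46717 in the 3 NT cultures, and none of them was at 0 in all KE cultures. Of 9 oligodendrocyte lineage markers, 8 were tested and all 8 were lower in KE, with summed levels of 27112 to 31879 against 35942 to 36249. Of 10 neuron markers, 2 were higher and 2 lower in KE, and of 12 vascular and mesenchymal markers, 2 were higher and 5 lower. The summed astrocyte markers rose 1.36-fold and the summed microglia and macrophage markers fell 8.29-fold on average, and the part of either in the changes of the 34 genes was not tested. In bulk cultures, fewer cells of a type and less RNA per cell cannot be told apart.

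Values are normalized counts, which are the authors' Salmon counts divided by DESeq2 size factors, and the log2FC is the difference KE minus NT in log2(normalized count + 1). Genes were called where limma gave an adjusted p-value under 0.05. On this scale, 20 of the 34 genes were called, 13 higher and 7 lower in KE, whereas 51.3% of the 15280 tested genes were called, 25.3% higher and 26.0% lower. In 26 of the 34 genes all 3 KE cultures lay on the same side of all 3 NT cultures, against 59.9% of all tested genes. The median log2FC was 0.07 for the 34 genes and 0.00 for all tested genes, and the median absolute log2FC was 0.29 and 0.30. The median of the 34 genes was 0.11 without KE replicate 1 and 0.04 without KE replicate 2. An absolute log2FC over 0.5 was reached by 10 of the called genes, 6 higher and 4 lower, against 26.0% of all tested genes. Among the 24 genes of the group with a mean of at least 1000, 12 were called, against 58.1% of the 6432 tested genes at that level. The share of called genes was thus near the background, and the results concern which genes rose and which fell. In all, these 34 genes took 1.28% to 1.38% of the normalized counts in KE and 1.24% to 1.27% in NT.

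**Figure D1:**
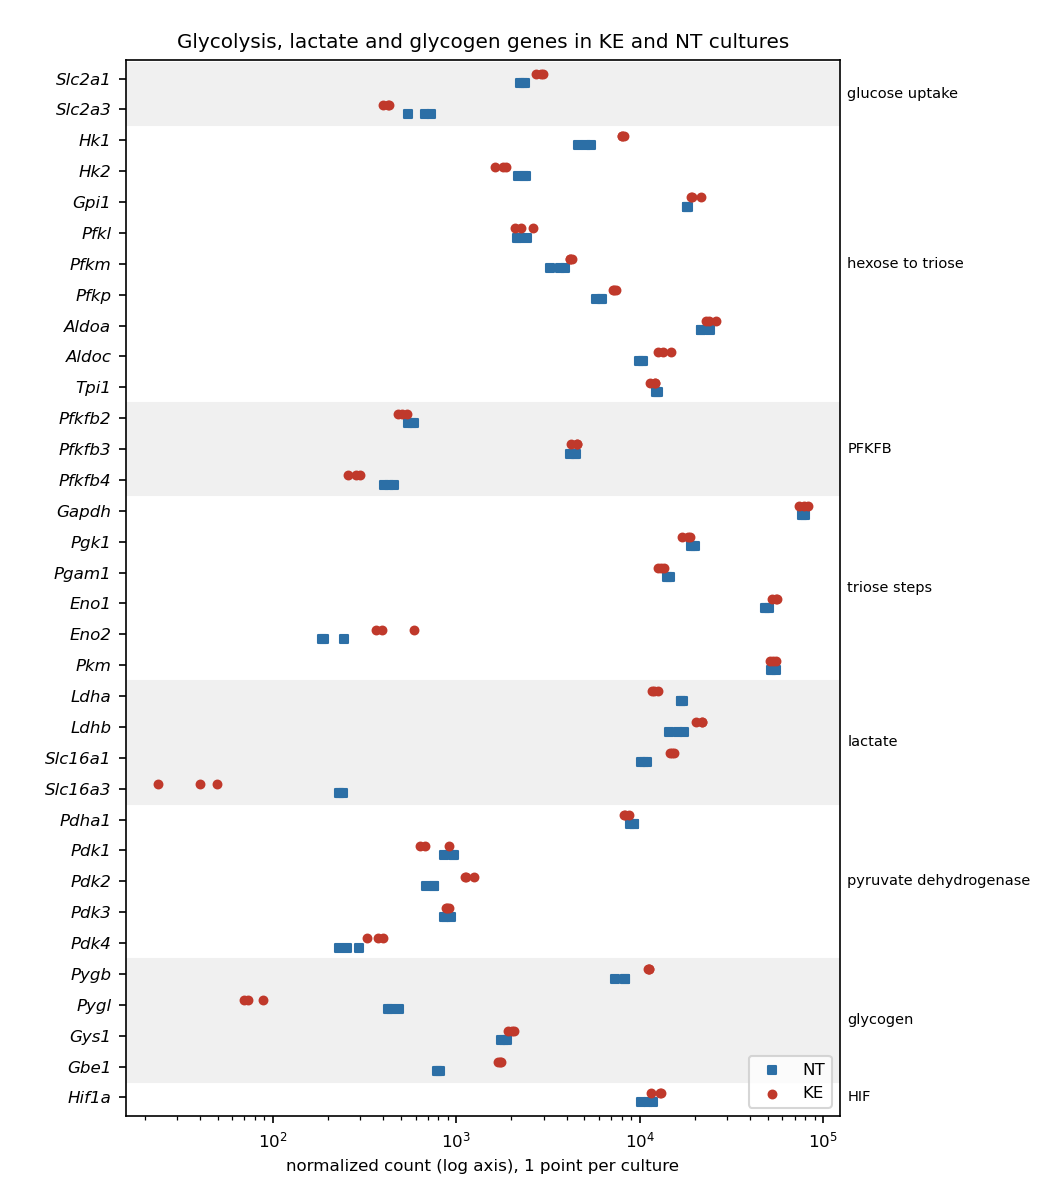
Normalized count (log axis) of each of the 34 genes in each culture, with circles for the 3 KE and squares for the 3 NT cultures, grouped by role. The values range from 23.8 for Slc16a3 in KE replicate 1 to 82374 for Gapdh in KE replicate 2, and the groups separate widely in Slc16a3, Pygl and Gbe1 but coincide in Gapdh and Pkm.

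**Figure D2:**
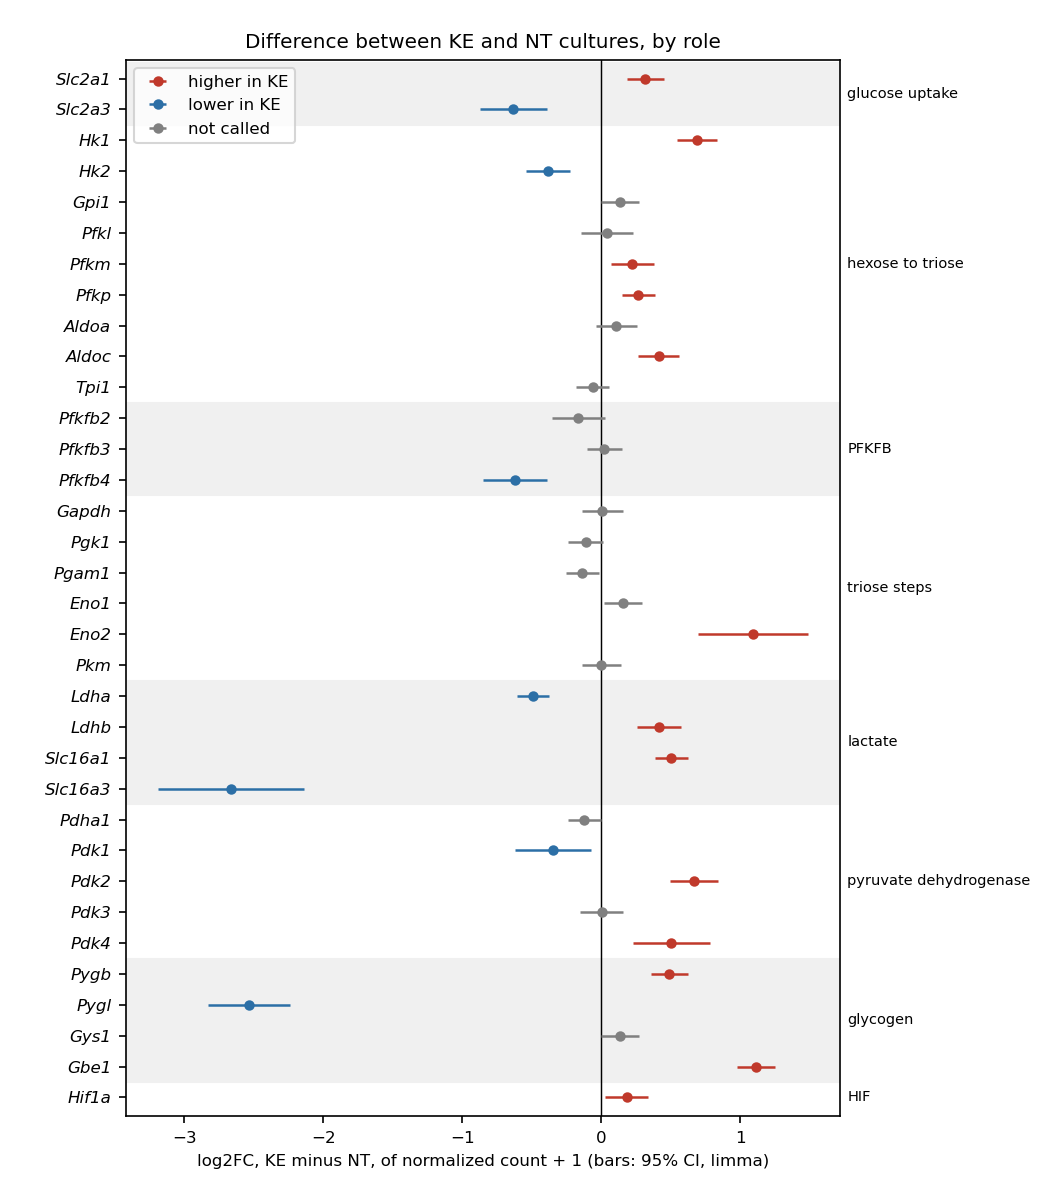
The log2FC of each gene (KE minus NT, log2 scale) with its 95% confidence interval from limma, colored by call and grouped by role. Slc16a3 (-2.66) and Pygl (-2.53) lie far below 0, Gbe1 (1.11) and Eno2 (1.09) lie highest, and the intervals of Gapdh, Pkm, Pdk3 and Pfkfb3 are centered near 0.

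The lactate genes parted by isoform, with Ldhb and Slc16a1 higher and Ldha and Slc16a3 lower in KE. Ldha (ENSMUSG00000063229, GRCm39 chromosome 7 from 46490899 to 46505061, plus strand) encodes the lactate dehydrogenase subunit that predominates in muscle and in glycolytic cells. Its normalized counts were 12018, 12538 and 11690 in KE and 17279, 16743 and 16912 in NT. Every KE culture was below every NT culture, and the log2FC was -0.49 (standard error 0.05, limma adjusted p = 2.01e-05). Ldhb (ENSMUSG00000030246, chromosome 6 from 142435672 to 142454586, minus strand) encodes the subunit that predominates in heart and neurons. Its normalized counts were 21982, 21818 and 20372 in KE and 14522, 16141 and 17563 in NT. The groups did not overlap, and the log2FC was 0.42 (standard error 0.07, limma adjusted p = 6.7e-04). The Ldha/Ldhb ratio of normalized counts was 0.547, 0.575 and 0.574 in KE and 1.19, 1.04 and 0.963 in NT. Divided by the length of the canonical transcript, the levels per kilobase of Ldha and Ldhb were alike in NT, 10690 ± 173 and 10510 ± 995 (SD, n = 3). In KE the level per kilobase was 7608 ± 269 for Ldha and 13990 ± 579 for Ldhb (SD, n = 3), and Ldhb exceeded Ldha in all 3 cultures.

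Slc16a1 encodes MCT1, a monocarboxylate transporter of astrocytes, endothelium and many other cells, and Slc16a3 encodes MCT4, a transporter of highly glycolytic cells that favors lactate export. Slc16a1 (ENSMUSG00000032902, GRCm39 chromosome 3 from 104545811 to 104565780, plus strand) was at 14673, 14965 and 15318 normalized counts in KE and 10538, 10190 and 10967 in NT. The groups were well separated, with a log2FC of 0.50 (standard error 0.05, limma adjusted p = 1.75e-05). Slc16a3 (ENSMUSG00000025161, chromosome 11 from 120838846 to 120851694, plus strand) was at 23.8, 49.6 and 40.1 in KE and 242, 230 and 233 in NT. Its log2FC of -2.66 (standard error 0.24, limma adjusted p = 4.39e-06) was the lowest of the 34 genes in the main fit, and 2.05% of all tested genes had a log2FC as low. Without KE replicate 1, Slc16a3 (-2.371) lay above Pygl (-2.497). Per kilobase, Slc16a1 was 3257 ± 70.2 in KE and 2296 ± 84.7 in NT, (SD, n = 3), whereas Slc16a3 was 5.07 to 10.6 in KE and 49.0 to 51.5 in NT, so MCT1 transcripts were the more abundant in both groups. The Slc16a3 counts are low. On the log2 scale of the fit, the fall of Slc16a3 was 6.33-fold. The mean of the summed microglia and macrophage markers fell 8.29-fold, which is an unlike measure, and the median log2FC of those markers was -3.31. A link between the falls was not tested.

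The promoters of these 4 lactate genes are shown because the genes moved in opposite directions and because Ldha is a known target of hypoxia-inducible factors, which bind the core motifs ACGTG and GCGTG. Promoters from 250 bases before to 50 bases after the gene's start were taken from RefSeq on GRCm38.p6 for 33 of the 34 genes, using the first listed start of each. Both motifs were searched on both strands, and CACGTG, which reads the same on both, counts as 2 ACGTG matches. Each is printed in the direction of the gene, with motif matches in capitals. The 4 windows are chr7:46845554-46845853 on the plus strand for Ldha, chr6:142507908-142508207 on the minus strand for Ldhb, chr3:104638414-104638713 on the plus strand for Slc16a1 and chr11:120948817-120949116 on the plus strand for Slc16a3.
Ldha: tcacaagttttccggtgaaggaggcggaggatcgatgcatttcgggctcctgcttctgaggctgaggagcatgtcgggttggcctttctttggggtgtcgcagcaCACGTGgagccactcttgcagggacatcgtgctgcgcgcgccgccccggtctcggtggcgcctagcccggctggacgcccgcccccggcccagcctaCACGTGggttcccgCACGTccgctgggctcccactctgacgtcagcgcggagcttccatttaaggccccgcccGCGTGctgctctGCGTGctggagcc
Ldhb: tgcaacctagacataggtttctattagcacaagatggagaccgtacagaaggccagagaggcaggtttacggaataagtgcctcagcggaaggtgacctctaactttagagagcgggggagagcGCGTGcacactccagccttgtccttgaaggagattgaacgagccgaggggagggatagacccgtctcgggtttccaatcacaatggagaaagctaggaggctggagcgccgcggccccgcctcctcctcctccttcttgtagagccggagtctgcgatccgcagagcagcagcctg
Slc16a1: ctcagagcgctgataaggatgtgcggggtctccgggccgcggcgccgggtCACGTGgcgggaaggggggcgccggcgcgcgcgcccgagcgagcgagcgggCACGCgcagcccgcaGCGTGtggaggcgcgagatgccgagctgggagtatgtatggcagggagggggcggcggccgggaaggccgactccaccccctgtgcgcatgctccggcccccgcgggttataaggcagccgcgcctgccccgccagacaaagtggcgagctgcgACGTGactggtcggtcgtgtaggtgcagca
Slc16a3: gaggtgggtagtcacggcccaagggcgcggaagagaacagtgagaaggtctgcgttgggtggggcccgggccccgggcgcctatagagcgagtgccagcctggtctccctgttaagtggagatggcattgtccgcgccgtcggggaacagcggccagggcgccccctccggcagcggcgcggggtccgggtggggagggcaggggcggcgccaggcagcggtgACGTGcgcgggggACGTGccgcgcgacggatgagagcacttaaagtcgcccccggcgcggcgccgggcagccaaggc
The Ldha promoter held 5 ACGTG and 2 GCGTG matches and that of Ldhb 0 and 1. The Slc16a1 promoter, of a gene that rose, held 3 ACGTG and 2 GCGTG matches, and that of Slc16a3, which fell, held 2 and 0. Either motif was present in 25 of the 33 promoters (75.8%), against 43.8% of 27025 genes. Those genes were not limited to genes expressed in the cultures or matched for base composition, so the shares are not like for like. By call, either motif was present in 10 of 13 promoters of genes higher in KE, 6 of 6 of genes lower in KE and 9 of 14 of genes not called. These matches are descriptions of the sequence and show no binding.

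Other genes of lactate and pyruvate transport and of pyruvate dehydrogenase were read from a list of 15, of which 13 were tested, 4 were higher, 1 was lower and 8 were not called, with a median log2FC of 0.14. Ldhd, which encodes the mitochondrial D-lactate dehydrogenase, rose most, from 33.4, 47.8 and 38.3 normalized counts in NT to 130, 168 and 135 in KE (log2FC 1.84, limma adjusted p = 1.78e-05). Bsg, which encodes basigin, the chaperone that carries MCT1 and MCT4 to the cell surface, had a log2FC of 0.45. Emb encodes embigin, a partner of the transporter MCT2, and fell by 0.60 on the log2 scale. Mpc1 and Mpc2, the 2 subunits of the mitochondrial pyruvate carrier, had log2FC of 0.30 and 0.44. Slc16a7, which encodes MCT2, was variable, with 29.5, 63.5 and 76.7 in KE and 62.8, 187 and 103 in NT, and was not called (limma adjusted p = 0.056). It is named after its values were seen. Ldhc and Slc16a8 were too low to test.

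Of the 4 glycogen genes, Gbe1 and Pygb were higher in KE, Pygl was lower and Gys1 was not called. Pygl, Pygb and Pygm encode the liver, brain and muscle forms of glycogen phosphorylase, which releases glucose units from glycogen. Pygl (ENSMUSG00000021069, GRCm39 chromosome 12 from 70237585 to 70278262, minus strand) was at 73.2, 70 and 88.7 normalized counts in KE and 486, 440 and 425 in NT. The groups were far apart, with a log2FC of -2.53 (standard error 0.13, limma adjusted p = 8.64e-08), and 2.22% of all tested genes had a log2FC as low. Pygb (ENSMUSG00000033059, chromosome 2 from 150628628 to 150673685, plus strand) was at 11249, 11075 and 11213 in KE and 7333, 8299 and 8281 in NT. It rose in every KE culture above every NT culture (log2FC 0.49, standard error 0.06, limma adjusted p = 5.48e-05). Per kilobase, Pygb was 1867 to 2113 and Pygl 148 to 169 in NT, against 2820 to 2864 and 24.4 to 30.9 in KE, so the brain form was the more abundant in both groups. On the log2 scale of the fit, the fall of Pygl was 5.78-fold. The mean of the summed microglia and macrophage markers fell 8.29-fold, which is an unlike measure, and the median log2FC of those markers was -3.31. A link between the falls was not tested.

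Gbe1 (ENSMUSG00000022707, GRCm39 chromosome 16 from 70110715 to 70366609, plus strand) encodes the branching enzyme that gives glycogen its branches. In the main fit it rose the most of the 34 genes on the log2 scale, closely followed by Eno2 (log2FC 1.09). Eno2 ranked above Gbe1 under quantile normalization (1.176 against 1.13) and without KE replicate 1 (1.17 against 1.1). The same held without KE replicate 2 (1.224 against 1.125) and without NT replicate 1 (1.215 against 1.126). The normalized counts of Gbe1 were 1760, 1700 and 1734 in KE and 817, 798 and 787 in NT. The cultures of each group agreed closely, and the log2FC was 1.11 (standard error 0.06, limma adjusted p = 1.36e-07), or 2.16-fold. Gys1, which encodes the glycogen synthase of muscle and brain, was at 1925, 2063 and 2021 in KE and 1754, 1828 and 1894 in NT. Its KE values all lay above its NT values but it was not called (log2FC 0.13, 95% confidence interval -0.0003 to 0.27, limma adjusted p = 0.0881). The promoters of the genes with the largest fall and rise of this group are shown for comparison with those above, with the same motifs in capitals. They are chr12:70227634-70227933 on the minus strand for Pygl and chr16:70313699-70313998 on the plus strand for Gbe1, on GRCm38.p6.
Pygl: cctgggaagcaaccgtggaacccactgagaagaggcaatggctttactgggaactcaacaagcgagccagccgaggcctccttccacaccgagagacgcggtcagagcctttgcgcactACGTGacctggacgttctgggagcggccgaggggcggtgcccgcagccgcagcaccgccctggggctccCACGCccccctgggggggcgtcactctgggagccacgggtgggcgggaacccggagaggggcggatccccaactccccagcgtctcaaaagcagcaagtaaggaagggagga
Gbe1: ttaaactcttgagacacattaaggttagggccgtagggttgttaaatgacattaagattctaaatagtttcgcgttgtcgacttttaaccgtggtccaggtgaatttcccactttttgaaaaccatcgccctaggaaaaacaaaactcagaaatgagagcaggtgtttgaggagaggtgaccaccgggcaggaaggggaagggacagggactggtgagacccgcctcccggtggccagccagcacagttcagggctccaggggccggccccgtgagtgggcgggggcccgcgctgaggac
The Pygl promoter held 1 ACGTG and 1 GCGTG match, and neither motif was found in the window of Gbe1.

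Of 24 other glycogen genes, 22 were tested, 10 were higher, 3 were lower and 9 were not called, with a median log2FC of 0.13. Ppp1r3f, a glycogen-targeting subunit of protein phosphatase 1, rose from 67.9, 82.6 and 74.9 in NT to 172, 211 and 247 in KE (log2FC 1.46). Phkg1 encodes a catalytic subunit of phosphorylase kinase, which activates glycogen phosphorylase, and had a log2FC of 0.96. Gaa, the lysosomal glucosidase that degrades glycogen, had a log2FC of 0.66, and Nhlrc1, which encodes the ubiquitin ligase malin, one of 0.62. Ppp1r3b, the targeting subunit best known from liver, fell by 0.98 on the log2 scale. The other 2 lower genes were Ppp1r3e (-0.43) and Phka2 (-0.36), named after their values were seen. Pygm was at 33.8 to 79.8 normalized counts over the KE cultures and 40.8 to 59.3 over the NT cultures and was not called, named here as the muscle form, while Gys2 and Ppp1r3g were too low to test.

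Glucose uptake and phosphorylation also parted by isoform. Slc2a1 encodes GLUT1, the main glucose transporter of astrocytes and of the blood-brain barrier, and Slc2a3 encodes GLUT3, the transporter best known from neurons. Slc2a1 (ENSMUSG00000028645) was at 2713, 2983 and 2906 in KE and 2360, 2221 and 2325 in NT. It was higher in every KE culture (log2FC 0.32, standard error 0.06, limma adjusted p = 0.00117). Slc2a3 (ENSMUSG00000003153) was at 424, 399 and 428 in KE and 727, 548 and 679 in NT. It was lower in every KE culture (log2FC -0.63, standard error 0.11, limma adjusted p = 5.99e-04), and the Slc2a3/Slc2a1 ratio of normalized counts fell from 0.282 ± 0.0316 to 0.146 ± 0.0113 (SD, n = 3).

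Hexokinase traps glucose in the cell as glucose-6-phosphate, and Hk1 is its widespread form in brain. Hk1 (ENSMUSG00000037012, GRCm39 chromosome 10 from 62104621 to 62215687, minus strand) was at 8225, 8065 and 8034 normalized counts in KE and 4611, 5413 and 5106 in NT. The KE values were close to each other and all above NT, with a log2FC of 0.69 (standard error 0.06, limma adjusted p = 6.25e-06). Hk2, the inducible form of muscle and many tumors, was at 1623, 1865 and 1807 in KE and 2414, 2170 and 2331 in NT. It was lower in every KE culture (log2FC -0.39, standard error 0.07, limma adjusted p = 9.63e-04). The Hk2/Hk1 ratio of normalized counts was 0.218 ± 0.0181 in KE and 0.460 ± 0.0615 in NT (SD, n = 3). Per kilobase, Hk1 was above Hk2 in both groups, with 1877 to 1922 against 208 to 239 in KE and 1077 to 1265 against 278 to 310 in NT. Hk3, a hexokinase known from myeloid cells, was in the list of other glycolysis genes and fell the most of that list, from 841, 919 and 632 in NT to 45.1, 85.2 and 70.7 in KE (log2FC -3.58, limma adjusted p = 2.36e-07), beside the fall of the microglia and macrophage markers.

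**Figure D3:**
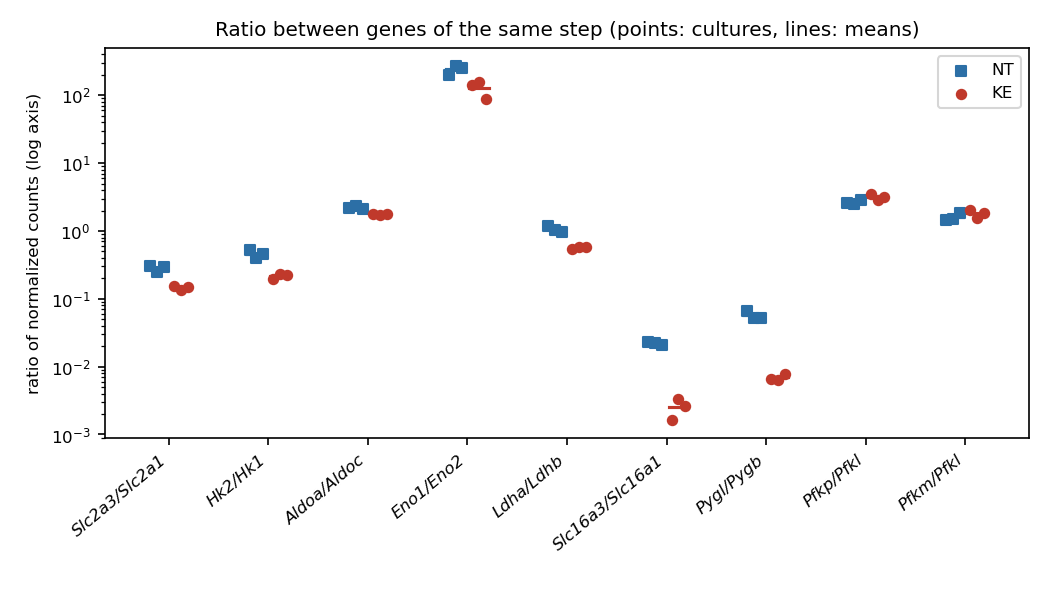
Ratio of the normalized counts of genes that serve the same step (log axis), with circles for KE and squares for NT cultures and lines at the group means. The ratio was lower in KE, with no overlap between the groups, for the 7 pairs from Slc2a3/Slc2a1 to Pygl/Pygb, whereas the phosphofructokinase ratios overlapped. Which gene of a pair comes first was set by hand.

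In the plot of ratios between genes of the same step, the KE and NT cultures did not overlap in 7 of the 9 pairs. No background of other gene pairs was made, and 59.9% of all tested genes, taken singly, did not overlap. The pairs and the order within each were set by hand, among genes chosen with earlier results of these data known. A direction shared by pairs is thus partly set by that choice. The largest shifts were those of Slc16a3/Slc16a1, with means of 0.00252 in KE and 0.0223 in NT, and of Pygl/Pygb, with 0.00692 and 0.0569. The ratio Aldoa/Aldoc was 1.78 ± 0.0346 in KE and 2.19 ± 0.0978 in NT (SD, n = 3). These ratios compare the isoforms within a culture and were not tested.

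Between glucose-6-phosphate and the trioses, the forms of phosphofructokinase and aldolase rose in part. Phosphofructokinase commits sugar to glycolysis and has a liver, a muscle and a platelet form. Pfkp, the platelet form, was at 7289, 7424 and 7167 in KE and 5789, 6165 and 6247 in NT, with no overlap (log2FC 0.27, standard error 0.05, limma adjusted p = 0.0017). Pfkm, the muscle form, was at 4280, 4159 and 4172 in KE and 3235, 3671 and 3922 in NT, and the spread of NT was the wider (log2FC 0.22, limma adjusted p = 0.021). Its call was lost without KE replicate 1 (limma adjusted p = 0.0673) and without NT replicate 1 (log2FC 0.15, limma adjusted p = 0.0798). Pfkl, the liver form, overlapped between the groups (log2FC 0.04, limma adjusted p = 0.726). Aldoc, the aldolase of brain and a classical marker of astrocytes, was at 13421, 14919 and 12669 in KE and 9957, 10501 and 10294 in NT, with no overlap (log2FC 0.41, standard error 0.07, limma adjusted p = 3.55e-04). Aldoa, the aldolase of muscle and most other tissues, was at 22883 to 25941 in KE and 21669 to 24140 in NT and was not called (log2FC 0.11, or 0.06 without KE replicate 2). A second table entry with the name Aldoa, called Gm57854 in Gencode vM39, held 0.078% of that level and was not called. Gpi1, which encodes glucose-6-phosphate isomerase, had a log2FC of 0.13 (limma adjusted p = 0.0876), and Tpi1, which encodes triose phosphate isomerase, one of -0.06 (limma adjusted p = 0.341). The log2FC of Gpi1 was 0.08 without KE replicate 2 and that of Tpi1 was -0.03 without KE replicate 3. Under quantile normalization the log2FC was 0.06 for Aldoa, 0.055 for Gpi1 and -0.11 for Tpi1, with none of them called.

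The PFKFB enzymes set the level of fructose-2,6-bisphosphate, the main activator of phosphofructokinase, and Pfkfb3, the form with the highest kinase activity, was the most abundant of the 3 per kilobase. Pfkfb3 was at 4218, 4582 and 4548 in KE and 4452, 4191 and 4497 in NT and overlapped between the groups (log2FC 0.02, 95% confidence interval -0.11 to 0.15). Pfkfb4 was at 300, 286 and 256 in KE and 459, 404 and 432 in NT. It was lower in every KE culture (log2FC -0.62, standard error 0.10, limma adjusted p = 4.88e-04). Pfkfb2 was lower in every KE culture by less and was not called (log2FC -0.16, limma adjusted p = 0.13).

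Of the 6 genes from glyceraldehyde-3-phosphate to pyruvate, Eno2 was called higher and the other 5 were not called. Gapdh, which is often used as a reference gene, was at 79012, 82374 and 74092 in KE and 76949, 79433 and 77589 in NT. The groups overlapped fully, with a log2FC of 0.01 (95% confidence interval -0.14 to 0.15). Pkm, which encodes pyruvate kinase of muscle and brain, was at 53521, 55453 and 51220 in KE and 51831, 55626 and 52670 in NT, with a log2FC of 0.0005 (95% confidence interval -0.14 to 0.14). Its muscle and embryonic splice forms are not separated in the table. Pgk1 (log2FC -0.11), Pgam1 (-0.14) and Eno1 (0.16), which encode phosphoglycerate kinase, phosphoglycerate mutase and the widespread enolase, were not called, with limma adjusted p of 0.129, 0.0513 and 0.0537, although the groups did not overlap in any of them. The log2FC of Pgk1 was -0.07 without KE replicate 3 and -0.20 under quantile normalization, where it was called (limma adjusted p = 0.0101). Pgam1 was called without KE replicate 2 (log2FC -0.16, limma adjusted p = 0.0399) and Eno1 without KE replicate 3 (log2FC 0.19, limma adjusted p = 0.0338). Eno2, the enolase of neurons, was low and rose from 245, 186 and 191 in NT to 393, 365 and 591 in KE. Its groups did not overlap, and KE replicate 3 stood above the other 2 KE cultures (log2FC 1.09, standard error 0.18, limma adjusted p = 4.24e-04). Of the 10 neuron markers, 8 were tested and 4 of those were not called. The called ones were Nefl (log2FC 1.73), Tubb3 (0.43), Stmn2 (-0.58) and Map2 (-0.51), named after their values were seen. Nefl was low, at 17.2 to 24.7 normalized counts in NT. The part of neurons in the rise of Eno2 was not tested.

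Per kilobase, the order in NT began with Gapdh (54920 ± 908), Pkm (21800 ± 814), Eno1 (21490 ± 626) and Aldoa (14890 ± 939), followed by Pgk1 (10700 ± 317) and the 2 lactate dehydrogenases (SD, n = 3). Pkm and Eno1 did not differ beyond their spread, nor did Pgk1, Ldha and Ldhb. In KE the order was Gapdh (55280 ± 2930), Eno1 (23930 ± 883), Pkm (21810 ± 866), Aldoa (16060 ± 1030) and Ldhb, with Pgk1 (9913 ± 473) next. These levels rest on the length of 1 canonical transcript a gene and on the authors' counts, so they are approximate. Copies of these genes could share reads with them, as many glycolytic genes have processed pseudogenes. The table lists 15 copies under names derived from 7 of the genes, and the largest held 0.268% of its parent's mean. Copies under other names were not counted.

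Of 20 other glycolysis genes, 13 were tested, 3 were higher, 3 were lower and 7 were not called, with a median log2FC of 0.12. The glucose transporters Slc2a12 (log2FC 1.22), Slc2a8 (0.58) and Slc2a10 (0.51) were higher in KE. Besides Hk3, the lower genes were Pfkfb1 (-0.69) and Bpgm (-0.37), which encodes bisphosphoglycerate mutase and is named after its value was seen. Forms known from other tissues, among them Hkdc1, Gapdhs, Pgk2, Pgam2 and Pklr, were too low to test. All 8 genes of the pentose phosphate pathway, which branches off at glucose-6-phosphate and supplies NADPH, were tested, and 3 were higher and 2 lower. G6pdx, its first enzyme, had a log2FC of 0.50, Taldo1 of 0.51 and Pgd of 0.18, while Rpia had one of -0.54 and H6pd one of -0.27. Of 9 gluconeogenesis genes, 4 were tested. G6pc3 (0.55) and Pck2 (0.52), the mitochondrial PEP carboxykinase, were higher, Pcx (-0.29), the pyruvate carboxylase of astrocytes, was lower, and Pck1, Fbp1, Fbp2, G6pc and G6pc2 were too low to test.

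**Figure D4:**
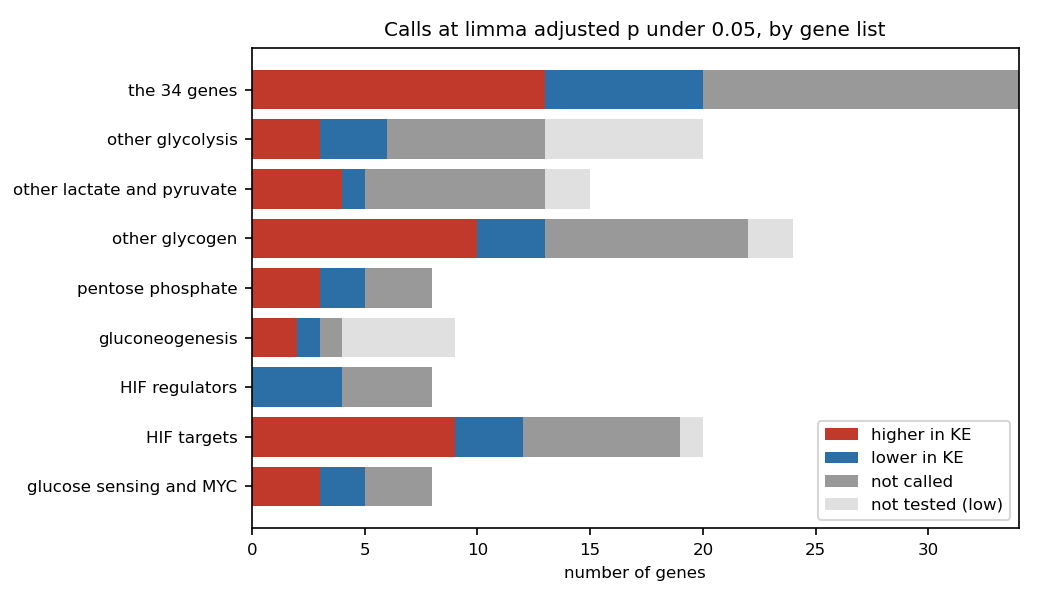
Number of genes called higher in KE, called lower in KE, not called and not tested because of low values, for the 34 genes and for 8 lists of related genes (limma, adjusted p under 0.05). Of the 34 genes 13 are higher and 7 lower, and the HIF regulators are the list with 4 lower and 0 higher.

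The bars of calls by gene list show both directions in 8 of the 9 rows. The lists were chosen with earlier results of these data known, and each row is set only against the 25.3% higher and 26.0% lower of all tested genes.

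Pyruvate dehydrogenase admits pyruvate to the citric acid cycle, and the PDK kinases switch it off by phosphorylating its E1 alpha subunit, which Pdha1 encodes. Pdk2, the widespread form, was at 1128, 1247 and 1113 in KE and 687, 755 and 753 in NT. It rose in every KE culture (log2FC 0.67, standard error 0.08, limma adjusted p = 3.4e-05). Pdk4, known as a form induced by fasting and fatty acids, was at 376, 328 and 398 in KE and 229, 254 and 296 in NT. It was also higher without overlap (log2FC 0.50, standard error 0.12, limma adjusted p = 0.00588). Pdk1, a known target of hypoxia-inducible factor, was at 675, 631 and 908 in KE and 962, 858 and 971 in NT. KE replicate 3 lay within the NT range, so the groups overlapped although the gene was called lower (log2FC -0.35, standard error 0.12, limma adjusted p = 0.0347). The call of Pdk1 was lost without KE replicate 1 (limma adjusted p = 0.12), KE replicate 2 (0.13), NT replicate 1 (0.0937) or NT replicate 3 (0.0857). Pdk3 was level between the groups (log2FC 0.00, 95% confidence interval -0.15 to 0.16). Pdha1 was at 8749, 8241 and 8330 in KE and 9288, 8867 and 9376 in NT, lower in each KE culture but not called (log2FC -0.12, limma adjusted p = 0.08).

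Hif1a encodes the oxygen-regulated subunit of hypoxia-inducible factor, which is controlled mostly at the level of protein stability and activates many glycolytic genes. Its normalized counts were 12856, 11576 and 13045 in KE and 11093, 10162 and 11807 in NT. The groups overlapped, and the log2FC of 0.18 (standard error 0.07) was at the threshold, with a limma adjusted p of 0.0499. Its call was lost without KE replicate 1 (limma adjusted p = 0.144), KE replicate 3 (0.143), NT replicate 1 (0.088) or NT replicate 2 (0.187), and under 6 other settings, with limma adjusted p between 0.0501 and 0.13.

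Of 8 genes that encode other subunits of hypoxia-inducible factors or proteins that restrain them, all were tested, 0 were higher and 4 were lower. Egln1 and Egln3, prolyl hydroxylases that mark the factor for degradation, fell by 0.56 and 0.33 on the log2 scale. Hif1an, the asparaginyl hydroxylase that blocks its activity, fell by 0.33, and its dimer partner Arnt fell by 0.26. Egln1 was at 1616, 1773 and 1654 in KE and 2367, 2442 and 2650 in NT, with no overlap. Of 20 known targets outside glycolysis, 19 were tested, 9 were higher, 3 were lower and 7 were not called, with a median log2FC of 0.18. Vegfa, the vascular growth factor (0.81), and the repressor Bhlhe40 (0.51) were among the higher genes, and Adm, which encodes adrenomedullin (-0.61), and Car9, a carbonic anhydrase (-0.50), were lower. The third lower gene, Ndrg1 (-0.40), is named after its value was seen, and Ankrd37 was too low to test.

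Of 8 glucose-sensing and MYC genes, 3 were higher, 2 were lower and 3 were not called. Arrdc4, an arrestin induced by the glucose sensors of the Mlx family, rose from 2718, 2723 and 2605 in NT to 4823, 4966 and 4912 in KE (log2FC 0.87, limma adjusted p = 2.3e-07). Txnip, its relative that restrains glucose uptake, was not called (log2FC -0.16, limma adjusted p = 0.0619) and is named after its value was seen. Mlx and Max, the dimer partners of these factors, had log2FC of 0.27 and 0.24, while Myc and Mycn, which can activate glycolytic genes, had log2FC of -0.32 and -0.48.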

How the data were processed

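RNA-seq of 3 KE and 3 NT cultures was analysed from 1 table. The authors deposited a normalized signal for each gene and culture, which are Salmon gene counts divided by DESeq2 size factors. The methods name TrimGalore, STAR, GRCm39 and Gencode vM28 for mouse, in a paragraph that lists hippocampus and spheroid samples and names astrocytes for a fold-change threshold, while GEO's processing notes name GRCh38, which the mouse gene identifiers go against. The libraries were made with a stranded mRNA kit.

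The total of normalized counts was 30472429 to 30895529 per culture. Dividing it by the most frequent low value, taken as the worth of 1 read, gave approximate depths of 24500000 reads for KE replicate 2 and 29500000 to 34100000 for the others. Of the low values of a culture, 72.9% to 75.9% came out whole to a tolerance of 0.1, so reads were not recovered, no count test was run, and precision rests on the spread between cultures.

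The 15280 genes whose mean reached 10 were tested on log2(normalized count + 1), in a model of group alone with a mean-variance trend (limma 3.58.1, R 4.3.3). P-values are two-sided and were adjusted by Benjamini-Hochberg over all tested genes. Coordinates and transcript lengths are from Gencode vM39 (GRCm39), which holds 54749 of the 55357 identifiers. Promoters are from RefSeq (GRCm38.p6). The text names all 34 genes and, from each other list, up to 5 called genes with the largest change and those not tested, except a few that are not reported here. The genes and lists were chosen with earlier results of these data known. The fit was tested on simulated data, but the outcome is not reported here and no result rests on it. Alternatives were pseudocounts, filters, scalings, no variance trend, a replicate block and leaving out each culture.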

Additional observations from a re-analysis of the deposited data

How the results depend on the processing

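Of 517 comparisons of a gene's log2FC with an alternative setting, 473 kept direction and call. Among the 20 called genes, 17 kept their call in every alternative run; the exceptions were Pfkm, Pdk1 and Hif1a, whose calls were lost in 3, 6 and 10 settings. Of the genes not called, 4 passed the threshold in some setting, Pgam1 in 5, Eno1 in 3, and Pgk1 and Pdha1 under quantile normalization, and the cause was not tested. The direction of Pkm, which was near 0, turned under quantile normalization (-0.062), with scaling to the 75th percentile (0) and with scaling to the total without Braf (-0.006), where Pdk3 also turned (-0.004). With each single culture left out, the values were -0.027 to 0.031 for Pkm, -0.026 to 0.041 for Pdk3, -0.027 to 0.049 for Gapdh, -0.051 to 0.109 for Pfkl and -0.009 to 0.06 for Pfkfb3. These fits gave 11 to 13 genes higher and 6 to 7 lower among the 34, 3280 to 3565 higher and 3496 to 3744 lower among all tested genes, and a median log2FC of 0.038 to 0.113.

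Over all settings, 11 to 14 of the 34 genes were higher and 6 to 9 lower. Quantile normalization moved the median log2FC of all genes to 0.029, the furthest of the settings. Same-numbered KE and NT cultures correlated at 0.059, 0.066 and 0.065 across genes in their deviations from the group means, each below the 0.1 set for pairing, although each culture correlated best with its own number. With the replicate block, 8046 genes were called in place of 7844, and of the 34 genes Pgam1 (limma adjusted p = 0.0313) and Eno1 (0.034) were also called. Summing each gene with its copies, a setting chosen after seeing the data, changed no call. Slc16a3, at low counts in KE, had the largest standard error of the 34 genes, 0.24 on the log2 scale.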

Other observations

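KE replicate 3 stood above the other 2 KE cultures in several genes of this group and of its lists. Eno2 was 591 there against 393 and 365 normalized counts, Pdk1 was 908 against 675 and 631, and Ero1a, an oxidase of the endoplasmic reticulum induced by hypoxia, was 3850 against 2987 and 2908. Hif3a, which encodes a further hypoxia-inducible factor, was 61.1 there against 27.5 and 21.4. NT replicate 3 also had the most Hif3a of its group, with 43.8 against 18.4 and 16.9. These genes were picked after their values were seen, and no test was made of them as a group.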
